A study of Mus musculus with 56 samples.

Results

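The 10 genes described here are the Hedgehog ligand gene Shh, 5 genes of the reception and transcription steps of its pathway (Ptch1, Smo, Hhip, Gli1 and Gli2), and 4 genes for the release and transport of the ligand (Disp1, Scube1, Scube2 and Scube3). They were found by matching each symbol to its Ensembl identifier, which gave 10 of the 55487 genes counted in whole mouse adrenal glands (55414 in the surgery table), and all 10 passed the low-count filter in each of the 3 count tables. The 56 libraries formed 14 groups of 4 mice of the C57BL/6J strain. Conditional knockout (cKO) glands carried homozygous floxed Znrf3 and SF1-Cre, a transgene that drives Cre recombinase in steroidogenic cells, so capsule, medulla, vessels and immune cells of the same gland are not its target. Control glands came from littermates labelled as SF1-Cre negative. Female glands were collected at an age of 6, 9 or 12 weeks, and male glands at 4, 6 or 9 weeks. A further table held male cKO glands at 9 weeks after castration or sham surgery at week 4, with no control without Cre. In it 2 sham and 1 castrated animals also carried an eYFP reporter allele, and 1 sham and 2 castrated animals an mTmG allele. The series design text asks which changes go with a switch from an enlarged to a regressing cKO gland.

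Hedgehog ligands are secreted proteins that bind the receptor Ptch1 on a neighbouring cell. Unbound Ptch1 holds the membrane protein Smo inactive. Ligand binding frees Smo, which turns on the Gli transcription factors, and Gli1, Ptch1 and Hhip are themselves transcribed in responding cells, so their RNA is widely read as a measure of pathway output. In the adrenal gland Shh is made by cortical cells just under the capsule, and the responding Gli1-positive cells lie in the capsule that surrounds the cortex. Disp1 releases the lipid-bearing ligand from the producing cell, and the secreted Scube proteins carry it away.

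Library totals ran from 35694264 to 51604620 counts in the female table, 12431963 to 35531016 in the male table and 25145519 to 42411447 in the surgery table. Values below are CPM, counts scaled to a common library size within a table with TMM factors (trimmed mean of M values), and levels are not compared between tables. Sham replicate 1 stood apart, with 9.87% of counts from mitochondrial genes and 6.01% from its most abundant gene, against 2.41% to 6.02% and 1.02% to 2.54% in the other 55 libraries. The liver gene Alb was at 287 CPM (before TMM scaling) in female cKO replicate 2 at 12 weeks, against 0 to 71 in the other libraries. Znrf3 itself, counted over the whole gene, was higher in cKO libraries in all 6 genotype comparisons (log2 fold change 0.49 to 1.13), which does not check a deletion of part of the gene. Replicates were independent mice, per the series design text.

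The windows of 250 bases before the RefSeq start were read for the members with an entry in the RefSeq promoter table (GRCm38.p6), which gave 9 windows for 8 members. No files here measure binding or chromatin at these starts. Shown are the 2 receptor-side genes that were lower in the knockout and Scube1, which was higher in females, each on the minus strand and written 5′ to 3′ towards the start, at chr13:63565736-63565985, chr8:80058009-80058258 and chr15:83725040-83725289. Capitals mark a GC box (GGGCGG, or CCGCCC on the other strand), in Hhip also a cyclic AMP response element (CRE, TGACGTCA, a palindrome) and in Scube1 also a CCAAT box. The Ptch1 window lies within the annotated GENCODE span of the gene.
Ptch1: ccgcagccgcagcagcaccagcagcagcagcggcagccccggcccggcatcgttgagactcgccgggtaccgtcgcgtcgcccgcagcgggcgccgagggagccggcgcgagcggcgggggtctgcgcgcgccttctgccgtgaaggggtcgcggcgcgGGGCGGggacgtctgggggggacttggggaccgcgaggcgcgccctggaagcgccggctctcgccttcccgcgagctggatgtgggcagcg
Hhip: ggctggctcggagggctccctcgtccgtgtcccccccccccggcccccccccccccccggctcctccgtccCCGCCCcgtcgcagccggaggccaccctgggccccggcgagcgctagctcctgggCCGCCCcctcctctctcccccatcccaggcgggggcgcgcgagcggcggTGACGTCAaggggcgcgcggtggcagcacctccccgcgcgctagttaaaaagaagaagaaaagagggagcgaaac
Scube1: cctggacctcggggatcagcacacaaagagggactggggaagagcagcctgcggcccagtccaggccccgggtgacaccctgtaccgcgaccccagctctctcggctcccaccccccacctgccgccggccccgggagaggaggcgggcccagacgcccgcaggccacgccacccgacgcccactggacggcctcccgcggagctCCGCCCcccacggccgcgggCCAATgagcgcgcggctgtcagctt
The CRE of Hhip began 75 bases before the start, and 1.55% of the 32851 windows of all genes held one on either strand. In Scube1 a CCAAT box began 25 bases and a GC box 45 bases before the start, and 33.8% and 32.7% of all windows held such a box. A GC box was in 5 of the 9 member windows (those of Gli2, Hhip, Ptch1, Scube1 and Scube2). The Gli motif GACCACCCA was in 0 of the 9 windows and in 0.225% of all windows, and the steroidogenic factor 1 motif AAGGTCA in 0 and in 4.08%. For the androgen receptor palindrome (AGAACA, any 3 bases, TGTTCT) these were 0 and 0.00913%. The TCF/LEF motif CTTTGAT, at which the effectors of Wnt signalling bind, was in 1 member window and in 3.21% of all. This was the Disp1 window at chr1:183147558-183147807, which lies within the annotated span of the gene. The Disp1 window at chr1:183221530-183221779 did not hold the motif. Both strands were searched, no 2 of the matches in these 3 windows overlapped other than the palindrome with itself, and a match is a run of letters, not a measured site.

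Per kilobase of merged exon, Smo and Shh were the most abundant members in control glands, and Scube2 the least. In control females at 6 weeks Smo stood at 19.8 ± 1.58 CPM per kilobase (mean ± SD, n = 4) and Shh at 14.1 ± 2.43. Scube3 (9.55 ± 0.796), Ptch1 (6.45 ± 0.601) and Disp1 (5.49 ± 0.389) followed on the same scale. Gli1 (1.81 ± 0.291), Hhip (1.8 ± 0.358) and Scube1 (1.56 ± 0.532) lay close together and did not differ beyond their spread. Gli2 and Scube2 were at 0.268 ± 0.087 and 0.122 ± 0.0321 CPM per kilobase. In control males at 9 weeks Shh led at 52.7 ± 7.17 CPM per kilobase, above Smo at 20.1 ± 2.39, and the last places were again those of Gli2 (0.372 ± 0.073) and Scube2 (0.144 ± 0.0509). In cKO females at 6 weeks Scube1 had moved to 12.7 ± 1.93 and Shh to 2.78 ± 1.13 CPM per kilobase.

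**Figure D1:**
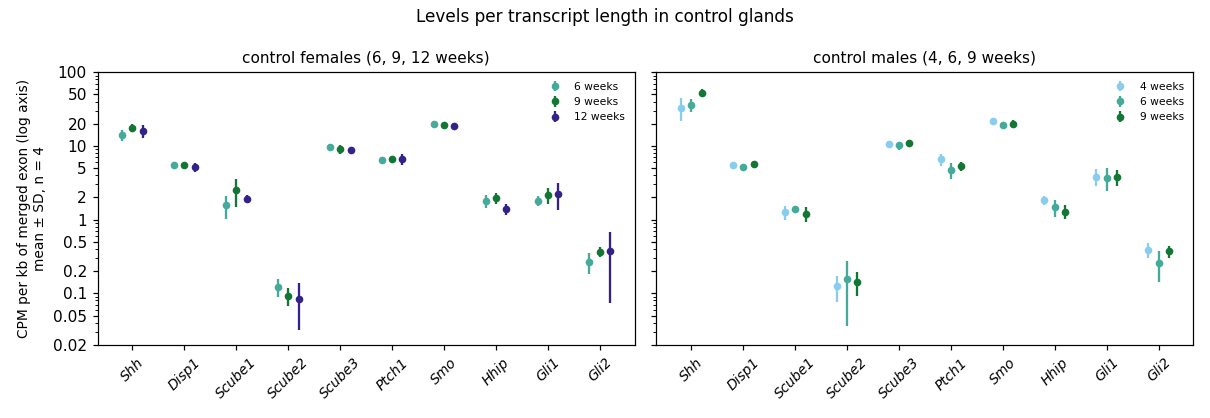
Level of each member per kilobase of merged exon (log axis, CPM per kilobase, mean ± SD of 4 control glands), by week, in females (left) and males (right). Shh and Smo lie at the top and Scube2 at the bottom in both sexes; the panels come from separate tables, so heights are not compared between them.

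Between cKO and control glands the ligand gene Shh fell in 4 of the 6 comparisons, the receptor gene Ptch1 in 4, Gli1 in 5 and Hhip in 6. Scube1 rose in females at all 3 weeks and in males at none, and Scube3 rose in females at all 3 weeks and in males at 4 and 6 weeks. In edgeR's quasi-likelihood test at an adjusted p under 0.05, 8 of the 10 members were called in females at 6 weeks, 2 higher and 6 lower, where 33.4% of all genes were called, 14.2% higher and 19.1% lower. At 9 weeks 8 were called, 3 higher and 5 lower (all genes 34.6%, 14.6% and 20%), and at 12 weeks 6, 2 higher and 4 lower (25.1%, 9.11% and 16%). In males 6 were called at 4 weeks, 2 higher and 4 lower (19.2%, 6.29% and 12.9%), 3 at 6 weeks, 1 higher and 2 lower (20.1%, 8.19% and 11.9%), and 2 at 9 weeks, both lower (24.1%, 10.4% higher and 13.6% lower). The counts in males at 6 and 9 weeks lie near these background shares. The median log2 fold change of the members was -1.02, -0.84 and -0.32 in females by week and -0.62, -0.25 and -0.38 in males, beside -0.02 to 0.01 over all genes tested. Castrated against sham-operated cKO glands gave 7 called members, 1 higher and 6 lower (43.6% of all genes, 19.8% and 23.8%), with a median of -1.04. The members were chosen with earlier results in view, so these counts describe the genes and are no test of the list.

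**Figure D2:**
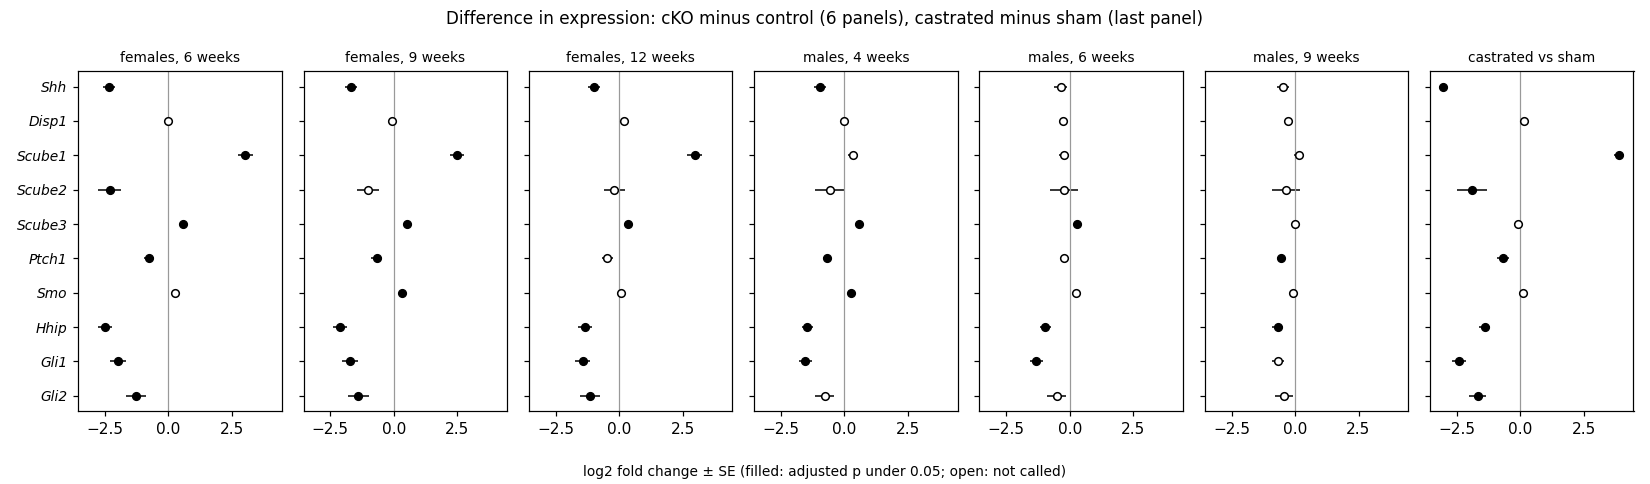
Log2 fold change ± SE of each member (rows) in the 6 genotype comparisons and in castrated against sham-operated cKO glands (panels), 4 glands per group; filled points passed an adjusted p under 0.05. Shh, Ptch1, Hhip, Gli1, Gli2 and Scube2 lie left of 0 in all 7 panels, and Scube1 lies far to the right in the female panels and after castration.

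Shh (ENSMUSG00000002633, chromosome 5, 28456815 to 28467256, minus strand on GRCm38) encodes the ligand. In control females its level was 38.9, 33.8, 38.3 and 50.04 CPM in the 4 glands at 6 weeks, 42.8, 50.6, 50.1 and 58.2 at 9 weeks and 38.4, 41, 59 and 44.5 at 12 weeks. In cKO females it was 12.1, 6.01, 8.62 and 4.9 CPM, then 22.1, 16, 11.7 and 12.8, then 20.6, 24.3, 28.8 and 18.7. Every cKO gland lay below every control gland of its week. The log2 fold change was -2.35 ± 0.24 (SE; adjusted p = 7.66e-08) at 6 weeks, -1.68 ± 0.23, adjusted p = 6.51e-06 at 9 weeks and -0.98 ± 0.23, adjusted p = 0.0025 at 12 weeks. The cKO glands at 6 and 9 weeks overlapped, as did those at 9 and 12 weeks.

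In males the difference in Shh was smaller than in females at the shared ages. A joint fit further on tests this but cannot tell sex from table, and its 9-week call depended on single libraries. Control males held 107, 47, 112 and 109.8 CPM at 4 weeks, 133, 92.9, 88.8 and 98.5 at 6 weeks and 122, 172, 152 and 155 at 9 weeks. cKO males held 45.1, 53.2, 38.4 and 56 CPM, then 78.8, 61.6, 65.1 and 117, then 64.9, 111, 118 and 138. The groups overlapped at each week, at 4 weeks through control replicate 2 alone. Shh fell at 4 weeks (log2 fold change -0.96 ± 0.25, adjusted p = 0.00747) and did not pass the test at 6 weeks (-0.36 ± 0.25, adjusted p = 0.337) or 9 weeks (-0.48 ± 0.24, adjusted p = 0.164). Library numbers in the male sample titles reached past 24 in 3 of 4 controls and 0 of 4 cKO glands at 4 weeks, in 4 of 4 controls and 0 of 4 cKO glands at 6 weeks and in 2 of 4 of each at 9 weeks. The call at 4 weeks was lost with library number range (up to 24 or above) as a covariate (-0.86, adjusted p = 0.0617). At 9 weeks the mean Shh level was 87.8 against 147 CPM (cKO against control, 2 and 2 glands) among numbers up to 24 and 128 against 153 CPM among higher ones.

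Castration went with a much lower Shh level. Sham-operated cKO males held 129, 193, 149.7 and 165 CPM and castrated cKO males 20.7, 20.7, 17.6 and 17.8. No castrated gland came near the sham range. The log2 fold change was -3.05 ± 0.14, adjusted p = 4.35e-07, and -3.14 without sham replicate 1.

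Ptch1 (ENSMUSG00000021466, chromosome 13, 63508328 to 63573598, minus strand) encodes the receptor. Control females held 88.6, 81.6, 93.9 and 102 CPM at 6 weeks and cKO females 66.5, 63.9, 61 and 23.6. The groups did not overlap, and cKO replicate 4 lay far below the other cKO glands. At 9 weeks the levels were 105, 84.5, 99.8 and 84.9 CPM in controls and 63.2, 42.8, 63.4 and 66.1 in the cKO, again without overlap. The log2 fold change was -0.77 ± 0.21, adjusted p = 0.00695 at 6 weeks and -0.67 ± 0.21, adjusted p = 0.0171 at 9 weeks. At 12 weeks it was -0.46 ± 0.21, adjusted p = 0.119, with 68.5 ± 6.41 against 94 ± 16.3 CPM (mean ± SD, n = 4) and overlapping groups. The call at 9 weeks was lost without cKO replicate 2 (-0.54, adjusted p = 0.0683), the one at 6 weeks with only its 2 groups in the fit (adjusted p = 0.0532), and at 12 weeks that fit gave a call (adjusted p = 0.0219).

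In males Ptch1 stood at 75.1, 83, 108 and 108 CPM in controls and 56.3, 53.9, 64.1 and 58.4 in the cKO at 4 weeks. At 9 weeks it stood at 88.7, 62.8, 73 and 73.9 in controls and 47.8, 57.1, 45 and 52.9 in the cKO. At neither week did the groups overlap, and both differences were called (log2 fold change -0.69 ± 0.15, adjusted p = 0.00155; -0.56 ± 0.15, adjusted p = 0.0082). At 6 weeks 58.1 ± 7.27 against 67.4 ± 16.7 CPM gave -0.22 ± 0.15, adjusted p = 0.337. After surgery Ptch1 was at 43.4, 89.6, 97.2 and 72.6 CPM in sham and 37.5, 55.4, 55.1 and 42.7 in castrated glands, and sham replicate 1, the library that stood apart, lay within the castrated range. The log2 fold change of -0.67 ± 0.23, adjusted p = 0.0381, became -0.86 (adjusted p = 0.00131) without that library. It was not called without any single one of the other 7 libraries: the adjusted p was 0.0982, 0.105 and 0.064 without sham replicates 2, 3 and 4, and 0.0961, 0.0521, 0.0511 and 0.1 without castrated replicates 1 to 4.

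Hhip (ENSMUSG00000064325, chromosome 8, 79965851 to 80058006, minus strand) encodes a membrane protein that binds the ligand and limits its range. It was called lower in all 7 comparisons. In females at 6 weeks the controls held 20.7, 16.8, 14.9 and 13.1 CPM and the cKO glands 4.28, 2.84, 3.03 and 1.35. At 9 weeks these were 13.8, 20.7, 19 and 16.9 in controls and 6.23, 2.65, 3.35 and 3.85 in the cKO, and at 12 weeks 11, 11.9, 11.7 and 15.9 in controls and 4.74, 5.94, 5.84 and 3.38 in the cKO. The groups did not overlap at any week. Its log2 fold change was -2.51 ± 0.28, adjusted p = 3.34e-07 at 6 weeks, -2.13 ± 0.28, adjusted p = 3.3e-06 at 9 weeks and -1.35 ± 0.27, adjusted p = 0.000747 at 12 weeks.

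In males Hhip was at 13.2, 16.4, 17.8 and 18.6 CPM in controls and 5.74, 4.08, 7.98 and 6.2 in the cKO at 4 weeks. At 6 weeks the values were 16, 9.31, 11.8 and 16.2 in controls and 5.67, 5.66, 7.21 and 8.93 in the cKO, and at 9 weeks 9.3, 9.7, 14.3 and 13.1 in controls and 5.85, 6.96, 8.4 and 7.76 in the cKO. Each cKO gland again lay below each control of its week, by a small margin at 6 and 9 weeks. This gave a log2 fold change of -1.46 ± 0.21, adjusted p = 2.18e-05, then -0.96 ± 0.21, adjusted p = 0.0023, then -0.68 ± 0.21, adjusted p = 0.0217. With library number range as a covariate the 6-week value was -0.53 (adjusted p = 0.223). The 9-week call was lost without cKO replicate 1 (0.0618) or 2 (0.0529) or control replicate 3 (0.0993) or 4 (0.0719), adjusted p in parentheses. Among library numbers up to 24 its 9-week means were 6.40 against 9.50 CPM (cKO against control, 2 and 2 glands), and 8.08 against 13.7 CPM among higher ones. Sham glands held 7.65, 13.3, 11.4 and 12.6 CPM and castrated glands 4.43, 4.06, 3.44 and 4.98, without overlap (log2 fold change -1.41 ± 0.21, adjusted p = 0.00037; -1.56 without sham replicate 1).

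Gli1 (ENSMUSG00000025407, chromosome 10, 127329882 to 127341974, minus strand) encodes an activating transcription factor and marks responding cells of the capsule. Arhgap9 overlaps it on the other strand, and the sources used here do not say whether counting used strand. Gli1 was at 7.58, 8.04, 10.1 and 10.5 CPM in control and 2.86, 2.25, 2.61 and 1.32 CPM in cKO females at 6 weeks. At 9 weeks these were 11.3, 9.03, 8.5 and 14.2 in controls and 4.06, 2.84, 2.73 and 3.5 in the cKO, and at 12 weeks 6.83, 8.5, 12.5 and 16.6 in controls and 3.99, 6.29, 4.22 and 1.88 in the cKO. All cKO values lay under all control values of the same week. On the log2 scale the change was -2.0 ± 0.31, adjusted p = 2.63e-05, -1.71 ± 0.31, adjusted p = 0.000147 and -1.44 ± 0.30, adjusted p = 0.00108 by week.

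The male series gave Gli1 levels of 14.4, 15.3, 23.9 and 22.6 CPM in controls and 7.52, 5.87, 7.1 and 5.55 CPM in the cKO at 4 weeks, and 25.5, 10.9, 16.5 and 21.5 in controls and 7.69, 6.38, 6.95 and 9.09 in the cKO at 6 weeks. At 9 weeks they were 12.7, 22.6, 22 and 18.1 in controls and 7.12, 16.2, 12.8 and 11.2 in the cKO, and only at this week did the groups overlap. The fall was called at 4 weeks (-1.54 ± 0.26, adjusted p = 0.000106) and 6 weeks (-1.31 ± 0.26, adjusted p = 0.000676). At 9 weeks it was -0.67 ± 0.25, adjusted p = 0.0521 in edgeR, and DESeq2 gave an adjusted p of 0.0421. Without cKO replicate 2 or without control replicate 1 the edgeR value at 9 weeks was -0.87 (adjusted p = 0.0257) or -0.83 (adjusted p = 0.0253). In the surgery table sham glands held 22.8, 14.9, 11.3 and 12.1 CPM and castrated glands 4.24, 2.81, 1.93 and 2.57, with no overlap (log2 fold change -2.41 ± 0.29, adjusted p = 0.000116; -2.15 without sham replicate 1, the highest of the 4).

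**Figure D3:**
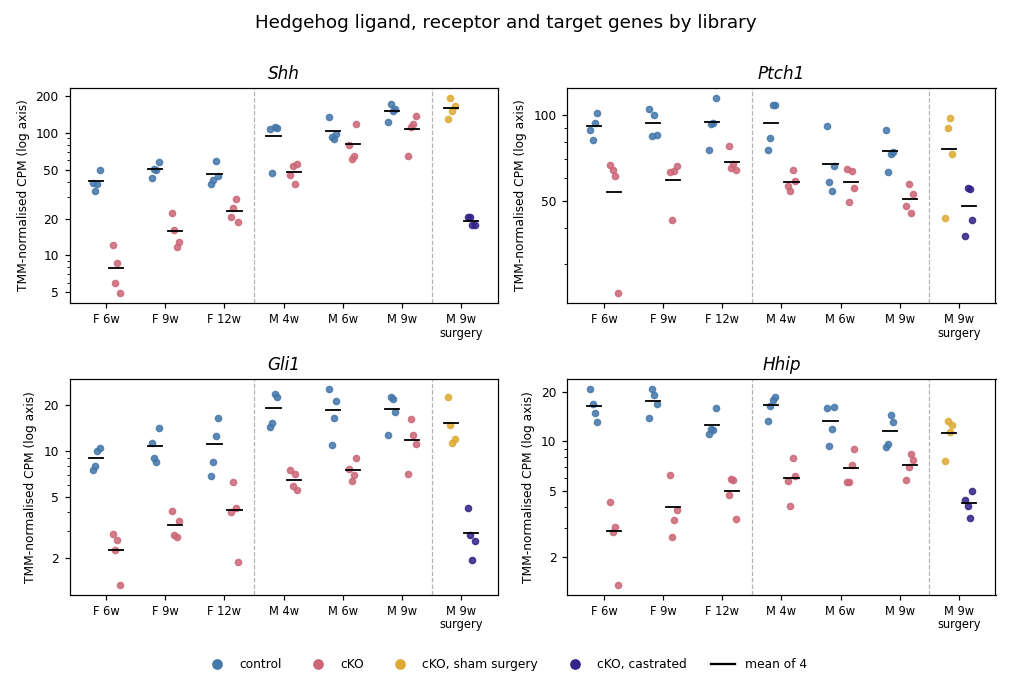
TMM-normalised CPM (log axis) of Shh, Ptch1, Gli1 and Hhip in every library, by sex and week; points are glands, bars the mean of 4, and dashed lines part the 3 separately normalised tables. The cKO points lie below the control points for Shh, Gli1 and Hhip in females at all 3 weeks, and castrated below sham for the same genes.

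Gli2 (ENSMUSG00000048402, chromosome 1, 118834132 to 119053619, minus strand) encodes the main transcriptional activator downstream of Smo in many tissues. It was expressed at a low level, with 1.42, 1.3, 2.07 and 2.58 CPM in control and 0.801, 0.802, 1.02 and 0.419 in cKO females at 6 weeks. At 9 weeks it was at 2.86, 2.0, 2.4 and 2.8 in controls and 0.968, 0.669, 1.04 and 1.17 in the cKO. At both weeks the groups were apart, and Gli2 fell (-1.28 ± 0.40, adjusted p = 0.0177; -1.39 ± 0.40, adjusted p = 0.00962). The 6-week call was lost without cKO replicate 4 (adjusted p = 0.0615) or control replicate 4 (0.0664). At 12 weeks control replicate 4 held 5.61 CPM and the other controls 0.826 to 2.28, against 0.765 to 1.35 in the cKO. The 12-week value of -1.16 ± 0.39, adjusted p = 0.0346, became -0.45 (adjusted p = 0.352) without that control. The call was also lost without any single cKO gland (adjusted p = 0.0601, 0.0529, 0.0509 and 0.107 without replicates 1 to 4) and with only these 2 groups in the fit (adjusted p = 0.136).

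In males Gli2 was not called at any week: the log2 fold change was -0.78 ± 0.36, adjusted p = 0.134 at 4 weeks, -0.52 ± 0.38, adjusted p = 0.376 at 6 weeks and -0.43 ± 0.35, adjusted p = 0.411 at 9 weeks. Their 95% intervals, -1.48 to -0.08, -1.26 to 0.23 and -1.12 to 0.26, are wide beside the female values. Sham glands held 2.23, 1.81, 1.58 and 2.45 CPM and castrated glands 0.627, 1.0, 0.33 and 0.554. The castrated values all lay lower, and Gli2 fell (-1.68 ± 0.34, adjusted p = 0.0026; -1.64 without sham replicate 1).

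Scube1 (ENSMUSG00000016763, chromosome 15, 83604999 to 83725021, minus strand) encodes a secreted and membrane-bound protein with EGF-like repeats and a CUB domain. In females it rose in the cKO at each week. Control glands held 18.4, 12.7, 20.9 and 9.41 CPM at 6 weeks, 38.7, 26, 15.1 and 19.4 at 9 weeks and 16, 18.3, 20.9 and 20.2 at 12 weeks. The cKO glands held 139, 144, 106 and 112 CPM, 93.4, 132, 163 and 174 and 144, 92.7, 149 and 212. The lowest cKO gland of the female table was above its highest control gland. The change on the log2 scale was 3.03 ± 0.29, adjusted p = 3.43e-08 at 6 weeks, 2.5 ± 0.28, adjusted p = 5.23e-07 at 9 weeks and 2.98 ± 0.29, adjusted p = 8.46e-08 at 12 weeks.

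In intact males Scube1 showed no such rise. Control males held 9.39, 14.2, 10.9 and 15 CPM at 4 weeks, 13.3, 12.8, 13.8 and 15.1 at 6 weeks and 9.08, 11.2, 15.8 and 11.2 at 9 weeks. The cKO males held 13.3, 11.6, 19.95 and 18.2, 8.06, 13.9, 13.8 and 11 and 15, 14.5, 13 and 9.85 CPM. The groups overlapped at all 3 weeks, and no difference passed the test (0.35 ± 0.20, adjusted p = 0.254; -0.23 ± 0.21, adjusted p = 0.474; 0.15 ± 0.20, adjusted p = 0.648). The 95% intervals of -0.05 to 0.75, -0.64 to 0.17 and -0.25 to 0.54 on the log2 scale end below the female values.

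After castration Scube1 rose. Sham cKO males held 10.7, 7.42, 6.79 and 6.58 CPM and castrated cKO males 142, 119.8, 113 and 89.2. The groups were far apart. Its log2 fold change was 3.89 ± 0.20, adjusted p = 7.18e-07, a 14.8-fold difference, and 4.07 without sham replicate 1. This table had no control without Cre, so whether castration changes Scube1 in a gland with intact Znrf3 was not measured.

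Scube2 (ENSMUSG00000007279, chromosome 7, 109798676 to 109865679, minus strand) encodes the family member best known for carrying lipid-bearing Shh. It was near the limit of detection, with as few as 1 count in a library. Females at 6 weeks held 17 to 27 counts in controls and 3 to 6 in the cKO. Sham glands held 10 to 34 counts and castrated glands 1 to 10. Scube2 passed the low-count filter through the groups where it was higher, so its calls only describe these values. Control females held 0.4, 0.602, 0.642 and 0.385 CPM at 6 weeks and cKO females 0.0687, 0.0978, 0.145 and 0.0883. These groups did not overlap, and Scube2 fell (-2.31 ± 0.46, adjusted p = 0.00038). At 9 weeks, again without overlap, the change was -1.02 ± 0.44, adjusted p = 0.0757, and at 12 weeks -0.19 ± 0.42, adjusted p = 0.788. In males no week gave a call, with log2 fold changes of -0.56 ± 0.58, -0.22 ± 0.56 and -0.34 ± 0.55 and adjusted p of 0.547, 0.832 and 0.701. Sham glands held 0.391, 0.283, 0.625 and 0.751 CPM and castrated glands 0.0738, 0.312, 0.0275 and 0.13, with overlap (-1.91 ± 0.59, adjusted p = 0.0234; -2.01, adjusted p = 0.0232 without sham replicate 1). That call was lost without sham replicate 3 (0.0526) or 4 (0.0695) or castrated replicate 1 (0.0575), 3 (0.059) or 4 (0.0604), adjusted p in parentheses.

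Scube3 (ENSMUSG00000038677, chromosome 17, 28142141 to 28174854, plus strand) encodes a secreted protein of the same family, and its transcript was the most abundant of the 3 in controls per kilobase. At 6 weeks control females held 78.1, 80.3, 85.4 and 94 CPM and cKO females 123, 163, 133 and 89.6, which overlapped through cKO replicate 4. At 9 weeks the values were 91, 71.6, 69.95 and 85.9 in controls and 105, 105, 119 and 124 in the cKO, and at 12 weeks 78.3, 84.4, 77.9 and 71.4 in controls and 96.7, 102, 107 and 93.6 in the cKO, both without overlap. It rose by 0.59 ± 0.12, adjusted p = 0.000683 at 6 weeks, 0.51 ± 0.12, adjusted p = 0.00271 at 9 weeks and 0.36 ± 0.12, adjusted p = 0.0366 at 12 weeks. The 12-week call was lost without cKO replicate 1 (0.0537), 2 (0.0692) or 3 (0.0927) or control replicate 1 (0.0626), 3 (0.0688) or 4 (0.101), adjusted p in parentheses.

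In males Scube3 was at 91.7, 86.3, 95.4 and 102 CPM in controls and 128, 129, 145 and 162 in the cKO at 4 weeks, and at 78.7, 99.4, 81.8 and 100.1 in controls and 109.8, 102, 109 and 122 in the cKO at 6 weeks. The cKO lay above the controls at both weeks, and Scube3 rose (0.58 ± 0.11, adjusted p = 0.000278; 0.30 ± 0.11, adjusted p = 0.0471). The 6-week call was lost without cKO replicate 4 (adjusted p = 0.0865), control replicate 1 (0.0938) or control replicate 3 (0.0628), and with library number range as a covariate (0.109). At 9 weeks, 95 ± 13.8 CPM in the cKO stood beside 96.4 ± 8.61 in controls (mean ± SD, n = 4; -0.02 ± 0.11, adjusted p = 0.91). Castrated and sham glands held 82.8 ± 12.6 and 89.3 ± 3.33 CPM, with a log2 fold change of -0.11 ± 0.12, adjusted p = 0.479 and a 95% interval of -0.34 to 0.12. The Scube1 interval in the same comparison was 3.49 to 4.29.

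**Figure D4:**
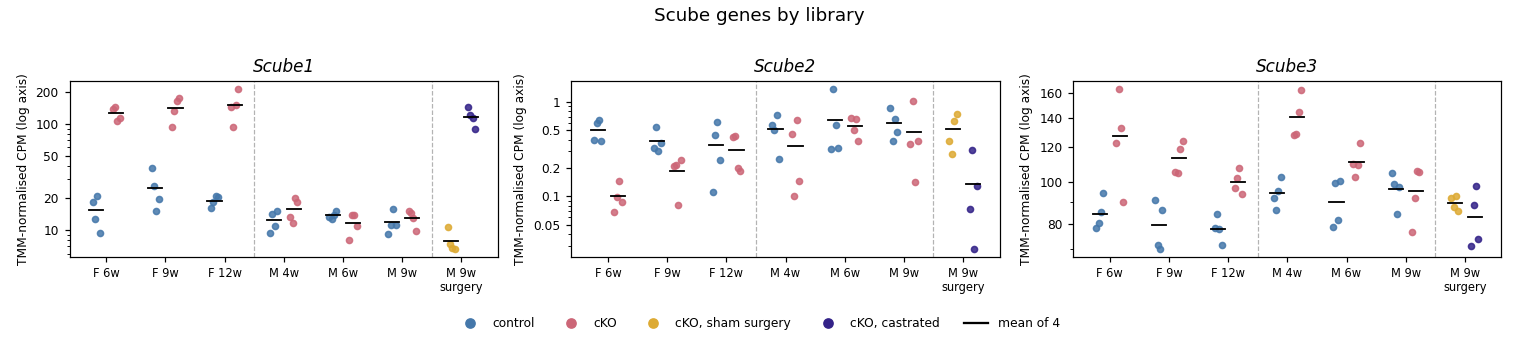
TMM-normalised CPM (log axis) of Scube1, Scube2 and Scube3 in every library, by sex and week; points are glands, bars the mean of 4, and dashed lines part the separately normalised tables. Within their tables, Scube1 is high in female cKO glands and in castrated glands, while Scube3 spans a narrow range and Scube2 stays under 2 CPM.

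Smo (ENSMUSG00000001761, chromosome 6, 29735503 to 29761365, plus strand) and Disp1 (ENSMUSG00000030768, chromosome 1, 183086266 to 183221522, minus strand) varied little. Smo stood at 100.1 to 122 CPM in control and 104 to 156 in cKO females at 6 weeks, at 100.2 to 114 and 108 to 165 at 9 weeks and at 93.9 to 119 and 107 to 121 at 12 weeks. The groups overlapped at each of these weeks. A rise was called at 9 weeks (0.31 ± 0.11, adjusted p = 0.0426), not at 6 weeks (0.25 ± 0.11, adjusted p = 0.0993) or 12 weeks (0.06 ± 0.11, adjusted p = 0.75). Without cKO replicate 4 the 6-week value was 0.35 (adjusted p = 0.0183). The 9-week call was lost without cKO replicate 3 (0.219) or 4 (0.0712) or control replicate 2 (0.101), 3 (0.11) or 4 (0.052), and its value was 0.18 without cKO replicate 3.

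In males Smo rose at 4 weeks (114, 113, 133 and 129 CPM in controls, 122, 144, 169.6 and 156 in the cKO; 0.27 ± 0.10, adjusted p = 0.0474). That call was lost without cKO replicate 3 (0.0741) or 4 (0.0512) or control replicate 2 (0.056), with library number range as a covariate (0.156) and with only its 2 groups in the fit (0.116). At 6 weeks the cKO range of 124 to 135 CPM lay above the control range of 101 to 119.6, with 0.23 ± 0.10, adjusted p = 0.0915 in the fit of all male groups and an adjusted p of 0.0181 with only these groups. The change was -0.08 ± 0.10, adjusted p = 0.591 at 9 weeks and 0.11 ± 0.14, adjusted p = 0.535 after castration.

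Disp1 was called in none of the 7 comparisons. Its largest changes were -0.27 ± 0.11, adjusted p = 0.0941 and -0.28 ± 0.11, adjusted p = 0.0658, in males at 6 and 9 weeks, where at 6 weeks the cKO range (19.7 to 25.2 CPM) lay below that of controls (25.6 to 30.2). In females the 95% intervals of its log2 fold change were -0.24 to 0.22, -0.29 to 0.17 and -0.04 to 0.42, and after castration -0.10 to 0.38.

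**Figure D5:**
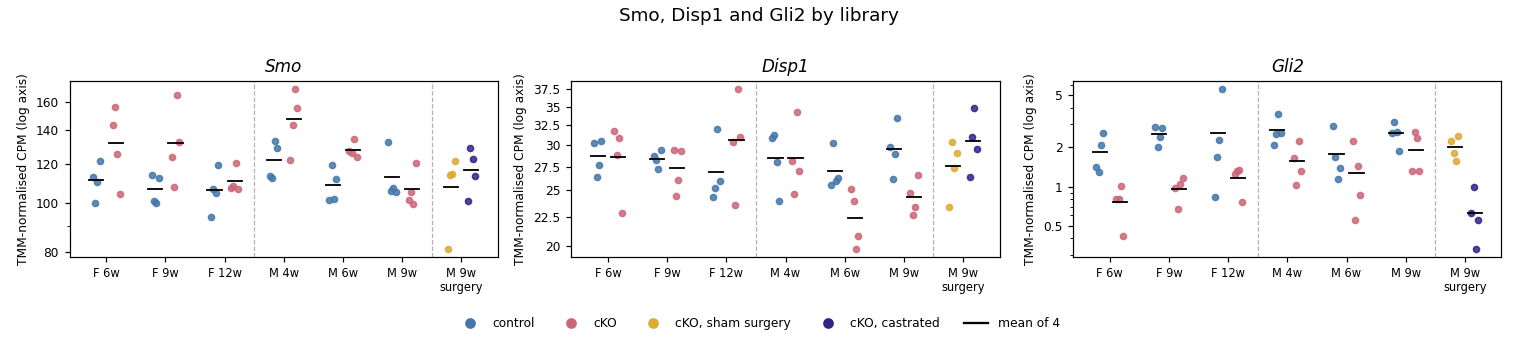
TMM-normalised CPM (log axis) of Smo, Disp1 and Gli2 in every library, drawn as in the plots of the other members. Smo and Disp1 stay within narrow ranges, while Gli2 is low throughout, with cKO below control in females at 6 and 9 weeks and castrated below sham.

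Between ages, members were called in the knockout and none in controls, and the difference between genotypes is tested further on. In control females 0 members were called between 9 and 6 weeks (0% of all genes) and 0 between 12 and 6 weeks (0.0912%) by edgeR, with 1 and 0 members at an unadjusted p under 0.05 and 0 and 0 called by DESeq2. In control males 0 were called between 6 and 4 weeks (0.0702% of all genes) and 0 between 9 and 4 weeks (3.13%), with 1 and 3 at an unadjusted p under 0.05 and 0 and 0 by DESeq2. The 1 in females was Scube1 (0.69 ± 0.28, adjusted p = 0.907) and the 1 in males between 6 and 4 weeks Ptch1 (-0.47 ± 0.15, adjusted p = 0.146). The other 3 were Shh (0.68 ± 0.24, adjusted p = 0.131), Ptch1 (-0.33 ± 0.15) and Hhip (-0.50 ± 0.21). These comparisons share their groups with the genotype comparisons above.

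Shh rose with age in the cKO. In females it was the 1 member called between 9 and 6 weeks (1.75% of all genes; log2 fold change 0.99 ± 0.23, adjusted p = 0.0331). Between 12 and 6 weeks 2 members were called (9.93%), Shh (1.55 ± 0.24, adjusted p = 0.000421) and Scube2 (1.61 ± 0.47, adjusted p = 0.034). The 9-week call of Shh was lost without 6-week replicate 2 (0.0685), 3 (0.0916) or 4 (0.079) or 9-week replicate 1 (0.101), 2 (0.0737) or 4 (0.0595), adjusted p in parentheses, and with only its 2 groups in the fit (0.225). The Scube2 call was lost without 12-week replicate 1 (0.0941) or 2 (0.11) or 6-week replicate 1 (0.0872), 2 (0.0689) or 4 (0.0736). It was also lost without the low-count filter (0.0594). The cKO glands held 3 to 6 Scube2 counts at 6 weeks and 8 to 16 at 12 weeks, and Scube2 entered the test through control glands. Hhip (0.79 ± 0.28, adjusted p = 0.0735) and Gli1 (0.85 ± 0.31, adjusted p = 0.0845) were not called between 12 and 6 weeks by edgeR but were by DESeq2 (adjusted p = 0.0299 and 0.0377). Without 12-week replicate 4 edgeR called both (0.0455 and 0.021), and without 6-week replicate 1 it called Hhip (0.0308). Without 6-week replicate 4 it called Scube3 (-0.48, adjusted p = 0.00561) and Smo (-0.36, adjusted p = 0.0471) lower.

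In cKO males 4 members were called between 9 and 4 weeks (41.7% of all genes), a count that lies near this background share. Shh (1.17 ± 0.25, adjusted p = 0.000774) and Gli1 (0.85 ± 0.26, adjusted p = 0.0105) rose, and Smo (-0.47 ± 0.10, adjusted p = 0.000568) and Scube3 (-0.57 ± 0.11, adjusted p = 0.000237) fell. The Gli1 call was lost without 9-week replicate 2 (0.67, adjusted p = 0.0529). Between 6 and 4 weeks 3 were called (16.6%): Shh (0.74 ± 0.25, adjusted p = 0.0427), Disp1 (-0.35 ± 0.11, adjusted p = 0.0343) and Scube3 (-0.34 ± 0.11, adjusted p = 0.0295). None of these 3 calls held without 4-week replicate 3, where the adjusted p was 0.134 for Shh, 0.17 for Disp1 and 0.0852 for Scube3. Shh was also lost without 4-week replicate 1 (0.0958) or 2 (0.0501) or 6-week replicate 1 (0.0742) or 4 (0.204). Disp1 was lost without 4-week replicate 1 (0.0613) or 6-week replicate 3 (0.102) or 4 (0.115), without the low-count filter (0.053) and with only its 2 groups in the fit (0.0986). Scube3 was lost without 4-week replicate 4 (0.121) or 6-week replicate 1 (0.0753), 2 (0.0968) or 3 (0.0608), and Smo was called without 4-week replicate 1 (-0.28, adjusted p = 0.0461).

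Whether the genotype effect itself changed with age was tested as an interaction. In females between 12 and 6 weeks 0 members were called by edgeR (0.322% of all genes), with 3 at an unadjusted p under 0.05 and 1 called by DESeq2. The 3 were Shh (1.37 ± 0.32, adjusted p = 0.0658), Hhip (1.16 ± 0.38, adjusted p = 0.233) and Scube2 (2.12 ± 0.62, adjusted p = 0.161), each with a positive difference (12 minus 6 weeks). DESeq2 called Shh (adjusted p = 0.00438), and edgeR did so without 12-week cKO replicate 4 (0.0401), 12-week control replicate 3 (0.045) or 6-week cKO replicate 1 (0.0122). In males between 9 and 4 weeks 1 member was called (4.92%), Scube3, whose genotype effect at 9 weeks minus that at 4 weeks was -0.60 ± 0.15 (adjusted p = 0.0252). That call was lost without 9-week control replicate 1 (adjusted p = 0.0516), with library number range as a covariate (0.0791) and with only the 4 groups compared in the fit (0.0501). At an unadjusted p under 0.05 stood 4 members: Scube3, Smo, Gli1 (0.87 ± 0.35, adjusted p = 0.14) and Hhip (0.78 ± 0.30, adjusted p = 0.117). For Shh the male difference was 0.49 ± 0.35, adjusted p = 0.408, so its rise with age in cKO males was not shown to differ from the change in controls. Smo (-0.35 ± 0.14, adjusted p = 0.117) was called without 4-week cKO replicate 1 (0.0367) or 9-week cKO replicate 4 (0.0473).

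At the 2 ages shared by both sexes, the genotype effect in females minus that in males was tested in a joint fit. This comparison was added after the data were seen. In it sex and table cannot be told apart, and only effects shared by both genotypes of a table cancel. In males at 6 weeks, library numbers above 24 were those of 4 of 4 controls and 0 of 4 cKO glands. Any effect of number range therefore stays in the male contrast at 6 weeks. At 6 weeks 3 members were called (7.29% of all genes). The female minus male difference was 3.29 ± 0.37, adjusted p = 2.46e-07 for Scube1, -1.95 ± 0.35, adjusted p = 0.000398 for Shh and -1.52 ± 0.36, adjusted p = 0.00563 for Hhip. At 9 weeks 5 were called (13.1%): Scube1 (2.45 ± 0.36, adjusted p = 3.52e-05), Scube3 (0.62 ± 0.16, adjusted p = 0.01) and Smo (0.47 ± 0.15, adjusted p = 0.032) with a higher difference in females, and Hhip (-1.35 ± 0.35, adjusted p = 0.00877) and Shh (-1.11 ± 0.34, adjusted p = 0.026) with a lower one. Of all called genes, 43% at 6 weeks and 65.5% at 9 weeks were higher, and with relative log expression scaling 31.9% and 51.6%.

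The calls of Scube1 and Hhip held under each alternative run at both ages, as did that of Shh at 6 weeks. The number range of the male libraries was also put in the joint fit, an alternative added after the data were seen. Its effect there is estimated from males at 4 and 9 weeks. The 6-week differences were then 3.14 for Scube1 (adjusted p = 2.02e-05), -2.11 for Shh (0.00134) and -1.95 for Hhip (0.0024). At 9 weeks Shh was lost without female cKO replicate 3 (adjusted p = 0.0584), female control replicate 4 (0.0527), male cKO replicate 4 (0.0647) or male control replicate 1 (0.0661). Scube3 was lost without female cKO replicate 3 (0.0693) or 4 (0.077) or male cKO replicate 2 (0.057). Smo was lost under relative log expression scaling (adjusted p = 0.0684), without a low-count filter (0.135), with a filter at 1 CPM in 4 libraries (0.104) and with only the groups compared in the fit (0.128). It was also lost without female cKO replicate 1 (0.0893), 3 (0.298) or 4 (0.128), female control replicate 2 (0.0593) or 3 (0.0661), male cKO replicate 2 (0.123) or 3 (0.175) or male control replicate 1 (0.103) or 4 (0.0892). At 6 weeks Scube2 (-2.04 ± 0.74, adjusted p = 0.0845) was called without male control replicate 2 (-2.73, adjusted p = 0.023).

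Beside the 10 members, 30 other genes of the pathway were listed by role, of which 28 passed the low-count filter and Ihh and Lrp2 did not. The genotype comparisons called 3 of the 28 higher and 7 lower in females at 6 weeks, 1 and 7 at 9 weeks and 1 and 5 at 12 weeks. In males they called 3 higher and 4 lower at 4 weeks, 2 and 4 at 6 weeks and 1 and 8 at 9 weeks. Castration gave 7 higher and 7 lower. Over all genes the called shares were 33.4%, 34.6% and 25.1% in females, 19.2%, 20.1% and 24.1% in males and 43.6% after castration, and the shares of the 28 lie near them. The median of the 28 lay between -0.16 and 0.12 on the log2 scale in these 7 comparisons. Among genes for ligand processing and release, Disp2, a relative of Disp1, fell from 47.5, 34.9, 43.3 and 58.4 CPM in control females at 6 weeks to 5.65, 3.11, 4.65 and 4.77 in the cKO (-3.34 ± 0.24, adjusted p = 5.65e-10). It was called lower in all 7 comparisons (log2 fold change -3.08, -2.92, -2.61, -3.00, -2.61 and -1.46 in the others), unlike Disp1. Gpc3, a glypican that binds Hedgehog at the cell surface, was also called lower in all 7, from -2.09 ± 0.22, adjusted p = 1.74e-07 in females at 6 weeks to -0.51 ± 0.18, adjusted p = 0.0418 in males at 9 weeks, and -1.64 ± 0.18, adjusted p = 6.28e-05 after castration.

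The co-receptor gene Cdon was called lower in the 6 genotype comparisons (-0.83, -1.02 and -0.78 in females, -1.07, -1.31 and -0.94 in males). Castration left it uncalled at 0.41 ± 0.21, adjusted p = 0.138. Gli3, the chiefly repressing Gli factor, was called lower in females (-0.47 ± 0.15, adjusted p = 0.0233; -0.67 ± 0.16, adjusted p = 0.00184; -0.62 ± 0.16, adjusted p = 0.00477). Tulp3, which brings receptors into the primary cilium, was called higher in females at 3 of 3 weeks, in males at 4 weeks and after castration (0.94 ± 0.09, adjusted p = 3.19e-05).

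Markers of the cells that make and receive the ligand moved in the same comparisons. Of 8 zona glomerulosa genes, 8, 8 and 6 were called lower in females by week and 6, 6 and 6 in males. Castration gave 7 lower and Kcnk3, a potassium channel gene, higher (2879.9 ± 327 against 1548 ± 147 CPM, mean ± SD, n = 4). The summed level of this list was 4147 to 5054 CPM in control and 2629.9 to 3094 in cKO females at 6 weeks. In males at 9 weeks it was 3329 to 4196 and 2070.4 to 2989 CPM. It was 2749 to 3699.9 CPM in sham and 3293 to 3995 in castrated glands. Control and cKO sums overlapped in females at 12 weeks (3390 to 4749 and 3329 to 3604 CPM). They also overlapped in males at 4 weeks (3701 to 4691 and 2054 to 3968 CPM), and were apart in the other genotype comparisons. Of 12 capsule and fibroblast genes, 8, 10 and 9 were called lower in females by week, and 8, 7 and 4 in males, with Pdgfrb higher at 6 weeks. Castration gave 12 lower. Their sum was 997 to 1262 against 481 to 875 CPM (control against cKO) in females at 6 weeks. In males at 9 weeks it was 1053 to 1539 against 860.4 to 1377 CPM, with overlap. The capsule sums also overlapped in females at 12 weeks (649 to 1517 against 508 to 743 CPM). So did those in males at 6 weeks (1059 to 1989 against 892 to 1196 CPM). Sham against castrated glands gave 1152 to 1328 against 486 to 605 CPM. All 7 medulla genes were called lower in each of the 7 comparisons, with a sum of 3717 to 4720.0 against 235 to 454 CPM in females at 6 weeks. Of 8 macrophage genes, 5, 6 and 4 were called higher in females by week and 1, 7 and 6 in males, and castration gave 6 lower, with a sum of 962 to 1818 CPM in sham and 417 to 664 in castrated glands. Of 6 endothelial genes, 5, 5 and 2 were called lower in females by week, with Plvap higher at each. In males 2 were lower at 4 weeks, 3 higher at 6 weeks and 1 higher at 9 weeks. Castration gave 5 lower (813 to 1149 against 708 to 788 CPM, sham against castrated). Of 5 Schwann and sustentacular cell genes, 4, 4 and 4 were called lower in females by week and 5, 5 and 2 in males, and castration gave 5 lower (12.3 to 33.2 against 6.66 to 9.82 CPM). Of 6 zona fasciculata genes, castration gave 4 higher (Cyp11b1, Star, Mc2r and Hsd3b1) and 0 lower, and their sum was 19159 to 29310.0 CPM in sham and 44319 to 47916 in castrated glands. In the 6 genotype comparisons at most 1 of these 6 was called higher and at most 1 lower. The zona fasciculata sum was 37152 to 47698 CPM in control and 38646 to 43641 in cKO females at 6 weeks. No gene of these lists was at 0 in any group. The part of these markers in the levels of the members was not tested, and in whole glands fewer cells of a type and less RNA per cell cannot be told apart.

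By a rule on the pattern of mean log2 CPM over the 12 genotype and week groups, centred within each table, the genes most like Shh among 12771 were Tmem200a, Osbp2 and Lrrn2, each with a root mean square difference of 0.22. For Gli1 they were Map6, B4galt5 and Acot11 (0.11 each), and for Scube1 Nat8 (0.41), Crybb1 (0.45) and Fscn1 (0.45). The median over all genes was 0.80, 0.79 and 1.03 for the 3 members. These are descriptions over 12 means with no test, and the Scube1 pattern had no match as close as those of Shh and Gli1.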

How the data were processed

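Per the labels' protocols, poly(A) RNA of whole glands was sequenced from directional libraries. The authors deposited raw gene counts in 3 tables. The submitters' processing notes name DESeq2 1.30.1, featureCounts, RSEM 1.6.3, STAR 2.7.6a and cutadapt 1.16, and the GRCm38 build, with no role stated, and the sources used here do not say how reads of overlapping genes were split. Annotated genes overlap Shh, Gli1 and Scube3 on the other strand and Ptch1, Smo and Disp1 on the same strand, so their counts are less certain. Symbols and positions came from GENCODE M21. Each table was fitted whole in edgeR 4.0.16 (R 4.3.3): filterByExpr at a minimum count of 10, TMM scaling, all groups in 1 quasi-likelihood fit, Benjamini-Hochberg adjustment over the 18645 (female), 17086 (male) or 16961 (surgery) genes tested. The joint fit of both sexes tested 19727. Standard errors are approximate (log2 fold change over the root of F). The pipeline was tested on simulated data. Alternatives were DESeq2 1.42.0, relative log expression scaling, no filter, a filter at 1 CPM in 4 libraries, leaving out each library, fits of only the groups compared, and replicate number, library number range (male and joint) or reporter allele (surgery) as covariates. All 10 members, Znrf3, and at most 4 other pathway genes per comparison by smallest p are named; values of such genes outside that rule were chosen after they were seen. Values of 1 listed gene are not reported here. Sham replicates carry the same number in the labels and were numbered in accession order. The members and lists were chosen with earlier results of these data known.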

Additional observations from a re-analysis of the deposited data

Results flagged for a closer look

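Within groups of 4, a gland was singled out where its gap to the nearest other gland, divided by the range, exceeded Dixon's critical value at the 95% level. Of 140 groups of values (10 members in 14 groups) 7 held such a gland, and chance gives about 1 in 20. Ptch1 was at 23.6 CPM in female cKO replicate 4 at 6 weeks, against 61.0 to 66.5 in the other 3, and at 42.8 CPM in cKO replicate 2 at 9 weeks, against 63.2 to 66.1. Shh was at 47 CPM in male control replicate 2 at 4 weeks, against 107 to 112. Gli2 was at 0.765 CPM in female cKO replicate 4 at 12 weeks, against 1.26 to 1.35. Smo was at 121 CPM in female cKO replicate 3 at 12 weeks, against 107 to 108, and at 133 CPM in male control replicate 1 at 9 weeks, against 105 to 108. Disp1 was at 30.2 CPM in male control replicate 2 at 6 weeks, against 25.6 to 26.3.

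The genotype effect differed between groups for these members, by an interaction test in edgeR (log2 difference ± SE). Between 9 and 4 weeks in males it differed for Scube3 (-0.60 ± 0.15). Between females and males at 6 weeks it differed for Scube1 (3.29 ± 0.37), Shh (-1.95 ± 0.35) and Hhip (-1.52 ± 0.36). At 9 weeks it differed for Scube1 (2.45 ± 0.36), Hhip (-1.35 ± 0.35), Shh (-1.11 ± 0.34), Scube3 (0.62 ± 0.16) and Smo (0.47 ± 0.15). The report gives the libraries without which the calls of Scube3, Shh and Smo are lost.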

How the results depend on the processing

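Of 3041 values of single members under an alternative (190 member comparisons), 110 lost a call, 23 gained a call, 0 called values changed sign and 110 uncalled values changed sign. Counts of called members moved by more than 1.5 times in these cases. Between cKO females at 9 and 6 weeks the count went from 1 to 0 with only the groups compared in the fit, and was 0 to 1 when leaving out 1 library. Between 12 and 6 weeks it went from 2 to 4 with DESeq2 and to 1 with a filter at 1 CPM in 4 libraries, which Scube2 does not pass, with no low-count filter, and with only the groups compared; leaving out 1 library gave 1 to 4. The female interaction gave 1 with DESeq2 and 0 to 1 when leaving out 1 library. In males at 6 weeks the genotype count went from 3 to 1 with library number range as a covariate. The male interaction went from 1 to 0 with that covariate, with only the groups compared and with the replicate block, and to 0 to 2 when leaving out 1 library. Without 1 library the count was 1 to 3 in males at 9 weeks, 0 to 2 between cKO males at 6 and 4 weeks and 2 to 5 for the sex difference at 9 weeks.

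Replicate numbers were shared between genotypes, but same-numbered samples did not deviate together (correlation -0.253 to 0.107, over 0.1 in 1 of 24 pairs). This check showed no pairing, and it cannot exclude that same-numbered samples shared a litter. With the replicate block the count was 8, 7 and 4 in females by week, 5, 2 and 3 in males, and 1 between cKO males at 6 and 4 weeks (3 without it). In females the block lost the genotype calls of Smo at 9 weeks (adjusted p = 0.0975) and of Gli2 (0.205) and Scube3 (0.07) at 12 weeks. In males it lost Smo at 4 weeks (0.0582) and Scube3 at 6 weeks (0.0646) and gained Gli1 at 9 weeks (0.0122). Between cKO males at 6 and 4 weeks it lost Shh (0.0501) and Disp1 (0.0748). Counts were lowest for Scube2, at 1 count in castrated replicate 3, a library of 38779045 counts. Scaling moved the median of all genes by less than 0.1.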
